A study of Caenorhabditis elegans with 2 samples.

Results

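Chromatin around 9 heat shock protein genes of Caenorhabditis elegans was examined for regions bound by ZIP-4. The genes were taken by name from the Ensembl annotation, 5 constitutive chaperone genes (hsp-1, hsp-6, hsp-60, hsp-90 and hsp-110) and, for contrast, 4 heat-inducible ones (hsp-70, hsp-16.2, hsp-16.41 and hsp-16.48). The rule used names and known roles, and the genes were named with earlier results of these data known. The 9 names cover 10 gene identifiers, since 2 neighbouring genes carry the name hsp-16.48, among 19973 nuclear protein-coding genes.

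ZIP-4, a transcription factor with a basic leucine zipper, was mapped by chromatin immunoprecipitation and sequencing in whole worms of strain OP590, mutant for unc-119(tm4063) and carrying the array wgIs590, which holds zip-4::TY1::EGFP::3xFLAG together with unc-119(+). The animals were pooled male and female first-stage (L1) larvae, 6 hours of age, starved after bleaching, and an antibody to GFP was used for the precipitation. The 2 biological replicates form 1 group and were set against the same control alignment, with no untagged worms, no fed worms and no heat-shocked worms among them. The transgene adds copies of zip-4 to those of the genome, so the level of tagged protein need not be that of the native factor, and binding in whole larvae cannot be assigned to a tissue.

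Heat shock proteins are chaperones that help other proteins fold and keep damaged proteins from clumping. hsp-1 (an Hsp70), hsp-90 (an Hsp90) and hsp-110 (an exchange factor for Hsp70) work in the cytosol of unstressed cells, while hsp-6 (the mitochondrial Hsp70) and hsp-60 (the mitochondrial chaperonin) fold proteins imported into mitochondria and are reporters of the mitochondrial unfolded protein response. hsp-70 and the small heat shock protein genes of the hsp-16 family are nearly silent until heat or another stress activates heat shock factor HSF-1, which binds heat shock elements built of alternating GAA and TTC units.

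The bound sequences are shown because the summits, the positions of strongest signal, fell in them. They come from the RefSeq reference assembly WBcel235 (ce11) and are written on the strand of the gene, each with 100 bp to either side of the pooled summit. Capitals mark matches to the paired heat shock units GAANNTTC and TTCNNGAA, including runs of overlapping pairs, and to TGATGCAA, the composite word of C/EBP and ATF factors.
hsp-60, III:1619037-1619237, plus strand: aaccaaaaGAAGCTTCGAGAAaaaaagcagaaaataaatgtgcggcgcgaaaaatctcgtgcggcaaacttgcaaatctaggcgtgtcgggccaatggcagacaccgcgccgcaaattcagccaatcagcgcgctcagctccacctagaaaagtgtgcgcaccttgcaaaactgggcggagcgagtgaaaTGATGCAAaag
hsp-1, IV:17278446-17278646, plus strand: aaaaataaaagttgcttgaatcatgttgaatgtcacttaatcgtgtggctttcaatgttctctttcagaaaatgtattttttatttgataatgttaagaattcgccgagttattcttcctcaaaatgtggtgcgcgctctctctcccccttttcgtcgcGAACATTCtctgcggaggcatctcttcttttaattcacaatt
hsp-90, V:14685673-14685873, plus strand: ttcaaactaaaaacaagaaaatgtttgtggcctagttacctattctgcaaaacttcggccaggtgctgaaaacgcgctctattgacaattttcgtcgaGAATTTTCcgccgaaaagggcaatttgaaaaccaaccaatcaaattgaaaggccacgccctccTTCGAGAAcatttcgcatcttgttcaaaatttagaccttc
hsp-110, III:8447067-8447267, minus strand: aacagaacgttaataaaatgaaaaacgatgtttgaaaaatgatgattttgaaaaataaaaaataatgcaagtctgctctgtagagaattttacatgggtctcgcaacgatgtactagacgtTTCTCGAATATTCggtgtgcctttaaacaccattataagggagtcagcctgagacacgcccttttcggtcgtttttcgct
hsp-6, V:4827066-4827266, minus strand: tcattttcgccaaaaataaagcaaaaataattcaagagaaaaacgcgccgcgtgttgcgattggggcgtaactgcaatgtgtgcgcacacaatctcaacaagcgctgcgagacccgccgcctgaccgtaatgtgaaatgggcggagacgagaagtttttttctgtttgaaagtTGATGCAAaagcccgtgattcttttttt

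For contrast, 2 promoters of heat-inducible genes are given with the same marks, one with weak regions and one with none. They are the whole interval between the divergent starts of hsp-16.2 and hsp-16.41, and the 200 bp before the start of the first hsp-16.48 gene. Every word of 36 bases in the hsp-16.48 promoter occurs elsewhere in the genome. A lack of signal there cannot be told apart from a loss of reads with several possible places.
hsp-16.2 and hsp-16.41, V:1804958-1805177, plus strand: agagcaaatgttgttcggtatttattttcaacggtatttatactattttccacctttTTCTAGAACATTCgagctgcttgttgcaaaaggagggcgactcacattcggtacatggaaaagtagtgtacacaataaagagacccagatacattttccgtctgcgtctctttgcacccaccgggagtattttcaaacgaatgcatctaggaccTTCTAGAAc
hsp-16.48, V:9087931-9088130, plus strand: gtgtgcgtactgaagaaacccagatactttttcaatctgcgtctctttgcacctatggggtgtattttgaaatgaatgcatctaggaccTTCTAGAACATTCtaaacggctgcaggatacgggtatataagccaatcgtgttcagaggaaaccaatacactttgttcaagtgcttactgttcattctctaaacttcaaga

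ZIP-4 peaks stood in the promoters of all 5 constitutive genes and of none of the 4 heat-inducible genes. A promoter here begins 1000 bp before any annotated transcript start and ends 200 bp after it, and a peak is a member of the optimal set, the 1290 regions that the authors kept by the irreproducible discovery rate method. Such a peak was in 5.71% of all protein-coding promoters (1141 genes). With 1 group, and genes named with earlier results of these data known, no test was made and the counts stand as a description.

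The longer candidate lists separated the classes less. The pooled reads and both replicates each have a list of 30000 regions, most of them weak. All 5 constitutive genes had a promoter region in all 3 lists, and hsp-16.2 and hsp-16.41 were the heat-inducible genes that had one in each. A pooled region was in 39.7% of protein-coding promoters, a replicate 1 region in 40.3% and a replicate 2 region in 39.4%, so 2 of 4 is near the share of all genes. hsp-16.2 and hsp-16.41 share 1 promoter and hence the same regions.

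**Figure D1:**
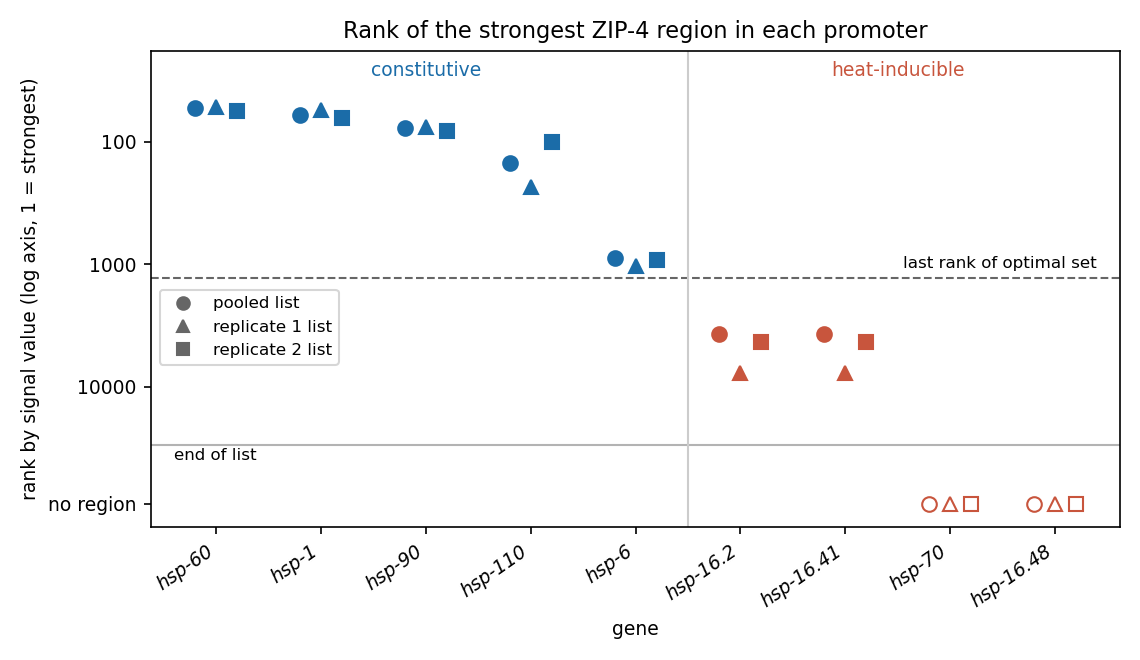
Rank by signal value (log axis, 1 at the top) of the strongest region in each promoter, with circles for the pooled list, triangles for replicate 1 and squares for replicate 2. Filled points of the 5 constitutive genes (blue) lie above the dashed line at rank 1290 and those of hsp-16.2 and hsp-16.41 (red) below it, while open points mark promoters of hsp-70 and hsp-16.48 without a region.

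Of the cytosolic chaperone genes, hsp-1 had the strongest region. It covered IV:17278464-17278678, with its summit at -413 bp from the start in sequence outside any protein-coding gene, and overlapped the annotated non-coding RNA F26D10.23 without the summit lying in it. Its signal value, the height that the authors' peak caller gave it on a scale not stated, was 567.9 for the pooled reads, 371.5 for replicate 1 and 200.1 for replicate 2. It ranked 60, 55 and 64 in these lists. The regions of both replicates were thus within the first 64 of 30000.

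The hsp-90 region followed at V:14685663-14685882, with signal values of 495.0 for the pooled reads, 318.4 for replicate 1 and 170.3 for replicate 2 and ranks of 77, 75 and 82. hsp-90 has 2 annotated starts, and this summit stood at -387 bp from the one at 14686160, inside an intron of the longer transcript that starts at 14684918. From that outer start the summit is beyond the downstream limit of a promoter. A weaker pooled region at -185 bp from the inner start had a signal value of 40.8 and a rank of 8149.

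The region of hsp-110, the exchange factor, was the one whose replicates stood furthest apart in rank among the constitutive genes in relative terms. It covered III:8447080-8447261 with its summit at -258 bp and had signal values of 328.3 for the pooled reads, 170.4 for replicate 1 and 146.9 for replicate 2. Its ranks were 149, 233 and 100. Replicate 1 had 1.16 times the signal value of replicate 2 here, against 1.65 to 1.87 times at the other 4 constitutive genes. The scale may differ between lists, so lists are compared by rank.

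Of the mitochondrial chaperone genes, hsp-60 had the strongest region of all 9 genes. It covered III:1619022-1619251 with an intergenic summit at -605 bp from the start. Its signal values were 592.3 for the pooled reads, 382.6 for replicate 1 and 210.8 for replicate 2, at ranks 53, 52 and 56. An internal start of hsp-60 at 1623128 had its own weak pooled regions, with signal values of 36.3 and 33.3 at ranks 12389 and 16476.

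hsp-6, the partner of hsp-60 in mitochondrial folding, had the weakest peak of the constitutive genes. Its region covered V:4826968-4827363 with the summit at -406 bp and signal values of 104.3 for the pooled reads, 62.6 for replicate 1 and 38.0 for replicate 2. The ranks were 885, 1037 and 920, within the first 1290 of each list, which is the size of the optimal set. In the pooled list the hsp-60 signal value was 5.68 times that of hsp-6. The hsp-6 summit lay in exons of 2 annotated non-coding RNAs on opposite strands, C37H5.15 and C37H5.16.

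Ranks of both replicates averaged 54.0 ± 2.83 for hsp-60, 59.5 ± 6.36 for hsp-1, 78.5 ± 4.95 for hsp-90, 166.5 ± 94.05 for hsp-110 and 978.5 ± 82.73 for hsp-6 (SD, n = 2 each). The order was the same in each replicate and in the pooled list. The replicate ranks of hsp-60 and hsp-1 overlapped, at 52 and 56 against 55 and 64, so these neighbours do not differ beyond their spread. Those of the other neighbours in this order did not overlap. Genes next to hsp-90 in pooled rank had replicate ranks between 62 and 92, so 2 replicates do not settle the order of hsp-1 and hsp-90. With 2 replicates, the SD is a rough measure of the spread.

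The deposited −log10 q-value orders the strong regions no further. At hsp-60, hsp-1, hsp-90 and hsp-110 it stood at the top value of each list, 3.22 for the pooled reads, 3.24 for replicate 1 and 2.97 for replicate 2, which is shared by 825, 865 and 472 regions. At hsp-6 it was 2.40, 2.20 and 1.90 in the same order of lists. A q-value of 0.05 or less was held by 1461, 1558 and 1428 of the 30000 regions in the pooled, replicate 1 and replicate 2 lists, and all 5 constitutive regions were among them in each list.

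Against the median region of the pooled list, whose signal value was 34.3, the strongest region was 17.3 times as high at hsp-60, 14.4 times at hsp-90, 9.56 times at hsp-110 and 3.04 times at hsp-6. Among the 876 optimal peaks that lay in promoters, hsp-60 took place 41, hsp-1 place 45, hsp-90 place 55, hsp-110 place 110 and hsp-6 place 633. The hsp-6 peak is thus in the weaker part of the promoter peaks, and the other 4 are in the strongest 110.

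**Figure D2:**
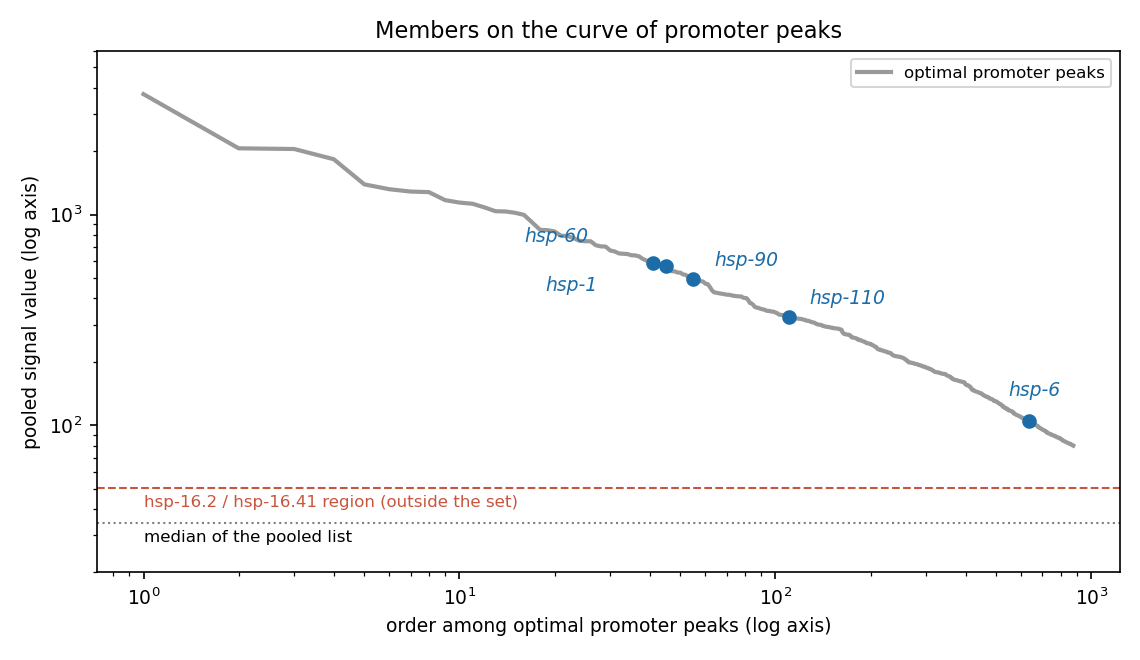
Pooled signal value (log axis) against order among the 876 optimal promoter peaks (log axis), with the 5 constitutive genes as blue points on the grey curve. hsp-60, hsp-1, hsp-90 and hsp-110 lie between 328.3 and 592.3, hsp-6 lies at 104.3, and the stronger region of hsp-16.2 and hsp-16.41 (red dashed line) is below the curve at 50.3, above the list median of 34.3 (dotted line).

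Among the heat-inducible genes, the divergent small heat shock protein genes hsp-16.2 and hsp-16.41 shared 2 weak pooled regions. The stronger, at V:1804756-1805151, had a signal value of 50.3 at rank 3694, and the weaker, at V:1804965-1805360, had 29.1 at rank 24258. The strongest region in this promoter had a signal value of 28.6 at rank 7743 in replicate 1 and of 21.8 at rank 4319 in replicate 2. The −log10 q-value of the strongest region was 0.45 for the pooled reads, 0.34 for replicate 1 and 0.60 for replicate 2, so the q-value was above 0.05 in each list. The stronger pooled signal value was 1.47 times the list median, and that of hsp-6 was 2.07 times as high.

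The replicates did not place the strongest region of this promoter at the same spot. The stronger pooled summit stood 3 bp inside the first exon of hsp-16.2 and at -224 bp from hsp-16.41, and the weaker one at -206 bp from hsp-16.2 and -15 bp from hsp-16.41. The strongest summits of the replicates were 180 bp apart. Replicate 1 had 1 region here, at -31 bp from hsp-16.2. Replicate 2 had 2, the stronger (21.8) at -211 bp from hsp-16.2, near the weaker pooled summit, and the other (21.2) nearer the start of hsp-16.2. At the constitutive genes the replicate summits were 0 bp apart for hsp-6, 6 bp for hsp-60, 14 bp for hsp-110, 20 bp for hsp-90 and 26 bp for hsp-1.

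hsp-70, a heat-inducible cytosolic Hsp70, had no promoter region in any list. It lies at I:9320325-9322519 on the minus strand, inside uggt-2 on the opposite strand. The nearest pooled summit stood at -2206 bp from its start with a signal value of 38.3 (rank 10296), and replicate 1 had one at the same position with a signal value of 31.6 (rank 5323). In replicate 2 the nearest summit stood at -10987 bp. No word of 36 bases in the hsp-70 promoter occurs elsewhere in the genome, so reads of that length or longer from it can be placed uniquely.

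The promoters named hsp-16.48 had no region either, but their sequence is not unique. The name covers 2 identifiers, WBGene00002019 at V:9088131-9088617 on the plus strand and WBGene00002020 at V:9089280-9089766 on the minus strand. RefSeq calls the second hsp-16.49. They are arms of an inverted repeat in which 1881 bases are identical, from V:9086861 to V:9088741 in the first copy. Every word of 36 or 50 bases in either promoter occurs elsewhere in the genome, which makes a lack of signal and a loss of reads with several possible places impossible to tell apart here.

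How such reads were treated in the peak lists is not given in the sources used here. Repeated words made up 7.93% of all 36-base words of the nuclear genome. In the 101 bp around the summit, 62 of 30000 pooled regions (0.207%) and 2 of 1290 optimal peaks (0.155%) consisted of such words alone. Such words were the majority in 304 pooled regions (1.01%) and 23 optimal peaks (1.78%). The first share counts words and the others count whole windows. No such window share was taken for the genome, so a lack of repeats in the lists cannot be read from these shares. By contrast, no 36-base word around the summits of the 5 constitutive genes or of hsp-16.2 and hsp-16.41 was repeated. In the promoters of hsp-1, hsp-16.2 and hsp-16.41, 2.49%, 1.11% and 1.29% of the words were repeated, and 12.9% of all genes had more than 10% of their promoter words repeated.

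The constitutive genes also had weaker regions inside the gene. All 5 had a pooled region inside the gene and outside its promoters, and none of the 4 heat-inducible genes had one, against 45.4% of protein-coding genes. hsp-90 had 4, hsp-110 had 3 and the others had 2 each. The strongest was in hsp-1, 1632 bp from the start, with a signal value of 76.2 at rank 1383. The classes differ in length, which bears on this count and was not adjusted for. The constitutive genes span 2372 to 6062 bp, while hsp-70 spans 2195 bp and the hsp-16 genes 487 to 698 bp.

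Optimal peaks also stood just past the ends of 3 constitutive genes. The summit was 185 bp past hsp-1 with a signal value of 100.3 (rank 936), 389 bp past hsp-6 with 98.7 (rank 956) and 144 bp past hsp-110 with 82.3 (rank 1231). An optimal summit lay within 500 bp past the end of 1.28% of protein-coding genes and a pooled one past 16.8%. A pooled summit was in that window for 4 constitutive genes and for 0 of 4 heat-inducible genes, and 0 of 4 is near the share of all genes. These positions were looked at after the values were seen.

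**Figure D3:**
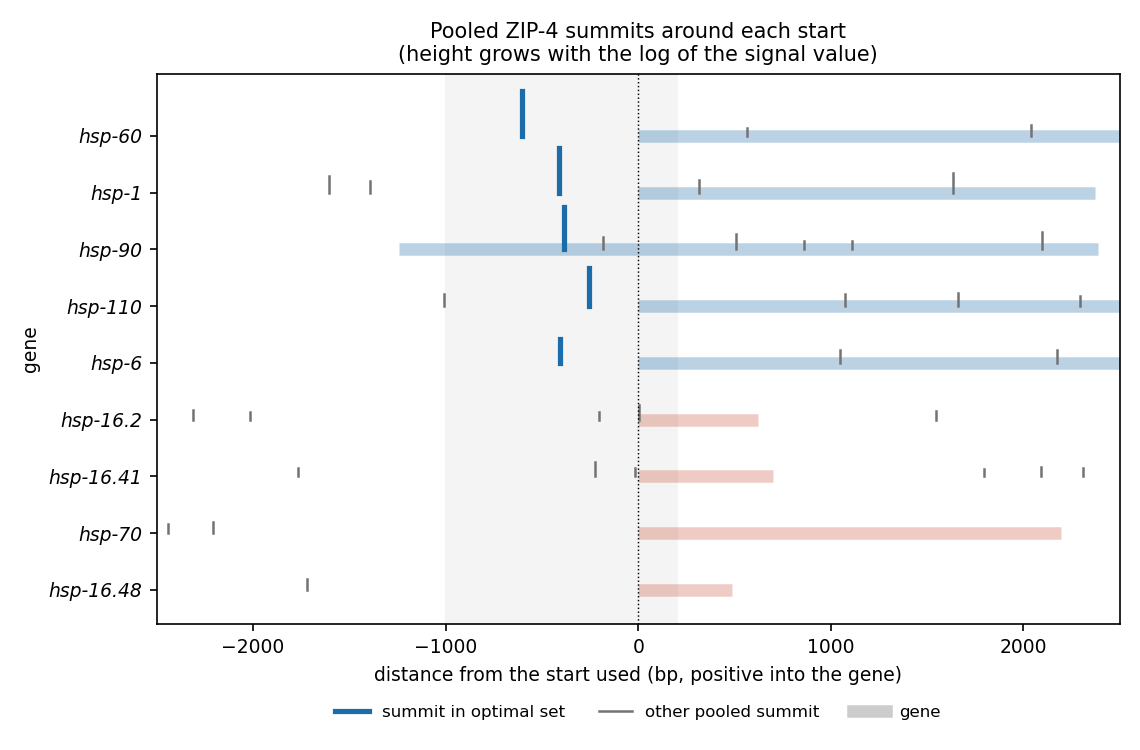
Pooled summits within 2500 bp of the start from which the strongest region was measured, as distance in bp with the gene as a pale bar (constitutive blue, heat-inducible red) and the promoter window shaded. Line height grows with the log of the signal value, and the thick lines of the optimal set stand at -258 to -605 bp in the 5 constitutive genes and nowhere in the 4 heat-inducible ones, where the first hsp-16.48 gene stands for both.

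Measured from the heat shock genes' own starts, the median summit of the 5 constitutive peaks was at -406 bp (-605 to -258 bp). The 876 optimal promoter peaks had a median of -188 bp, but each was measured from the nearest start of any protein-coding gene. By that measure the constitutive summits stood at -186 bp (hsp-110), -194 bp (hsp-6), -208 bp (hsp-60), -288 bp (hsp-90) and -413 bp (hsp-1). The middle value was -208 bp. The median width of the 5 peaks was 220 bp, against 396 bp for the 876. The widths ran from 182 bp at hsp-110 to 396 bp at hsp-6, whose interval was the widest of the 5.

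Most of these peaks lay in shared promoters. The peaks of hsp-60, hsp-90, hsp-110 and hsp-6 also lay in the promoter of a divergent protein-coding neighbour, to whose start each summit was closer, and only the hsp-1 peak did not. Among the optimal promoter peaks, 311 of 876 (35.5%) lay in promoters of 2 or more genes. A peak in a shared promoter cannot be assigned to 1 of the genes from these lists.

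The neighbours were of varied kinds. The hsp-60 summit stood at -208 bp from Y22D7AL.10, the gene for the co-chaperonin that closes the Hsp60 ring, so a single region lies in the promoters of both genes of the mitochondrial chaperonin. The hsp-110 summit stood at -186 bp from rpn-3, a regulatory subunit of the proteasome. The hsp-6 summit stood at -194 bp from C37H5.5 and the hsp-90 summit at -288 bp from C47E8.4. Base composition at the summits also varied, with GC contents in the central 101 bp of 58.4% at hsp-6, 55.4% at hsp-60, 43.6% at hsp-90 and 36.6% at both hsp-1 and hsp-110, against a median of 46.5% over the optimal peaks (quartiles 40.6 and 52.5%).

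None of the 5 constitutive peaks held TTGCGAAA, the C/EBP-type word, within 50 bp of the summit on either strand. It was in 16.8% of optimal peaks and 1.12% of the 28526 background regions, the pooled regions that touch no optimal peak. Widening the window to 100 bp gave no match either, with shares of 20.4% and 1.93%. At such shares among optimal peaks, absence from 5 windows says little. In the whole promoters, hsp-90 held the word at 377 bp from its summit and, upstream of its outer start, at 1394 bp from it. hsp-60 held it only upstream of its internal start. The word was in the whole promoters of 2402 of 19973 genes, and of 353 of the 1141 with an optimal peak.

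The looser C/EBP forms TTGCNNAA and TTACNNAA were also absent within 50 bp of these summits, which for so few windows again says little. At that width 26.5% of optimal peaks and 16.3% of background regions had one. Within 100 bp they were in hsp-60, 67 bp downstream of the summit, and in hsp-90, 54 bp upstream. At that width they were in 39.2% of optimal peaks and in 8565 of the 28526 background regions. TTGCGCAA, TGACGT and CACGTG, words of other leucine zipper and related factors, had no match within 100 bp of a constitutive summit, and GAGAGAGA matched at hsp-1. The first 3 of these words are in 1.48%, 8.94% and 7.15% of the optimal windows of 201 bp, so their absence from 5 windows says little, and GAGAGAGA is in 8.70%.

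The paired heat shock units GAANNTTC and TTCNNGAA lay close to the summits of 2 cytosolic chaperone genes. The centre of a match stood 2 bp from the summit at hsp-90, and 2 overlapping matches stood 25 and 30 bp from it at hsp-110. Within 50 bp, such a pair was in 7.46% of optimal peaks and 11.5% of background regions. Within 100 bp, hsp-1 and hsp-60 had one too, so that 4 of 5 did, against 17.2% and 22.4%. hsp-6 was the constitutive gene without one. The stronger pooled region of hsp-16.2 and hsp-16.41 also had 2 such matches within 100 bp of its summit.

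The heat shock element of 3 units, in which another unit follows the pair, was within 50 bp of the hsp-110 summit and within 100 bp of the hsp-60 summit. It was also 67 bp from the stronger pooled summit of hsp-16.2 and hsp-16.41. It was in 1.09% and 1.86% of optimal peaks and in 0.463% and 0.992% of background regions at these widths. Over whole promoters both classes held it. All 9 genes had at least 1 match, against 9.21% of all genes and 140 of the 1141 genes with an optimal peak. hsp-70 had 1 at -67 bp, hsp-16.2 and hsp-16.41 share theirs, and hsp-16.48 had matches at -105 and -259 bp. The element therefore did not divide the genes as the peaks did. In hsp-90 both matches were near the outer start, 864 and 934 bp from the summit.

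TGATGCAA was most frequent in the hsp-6 promoter. It had 4 matches, at -15, -186, -228 and -329 bp from the start, and 0.0150% of protein-coding genes have at least 4. The match nearest the summit was 77 bp from it. hsp-60 had 1 match, 94 bp from its summit, and 6.08% of genes have at least 1. None of the other 7 genes had one. Within 50 bp of the summit, 0 of 5 constitutive peaks held the word, against 0.622% of optimal peaks and 0.522% of background regions. Within 100 bp, 2 of 5 did, against 1.24% and 1.06%. A match describes the letters in a window and does not show that a factor sits there.

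**Figure D4:**
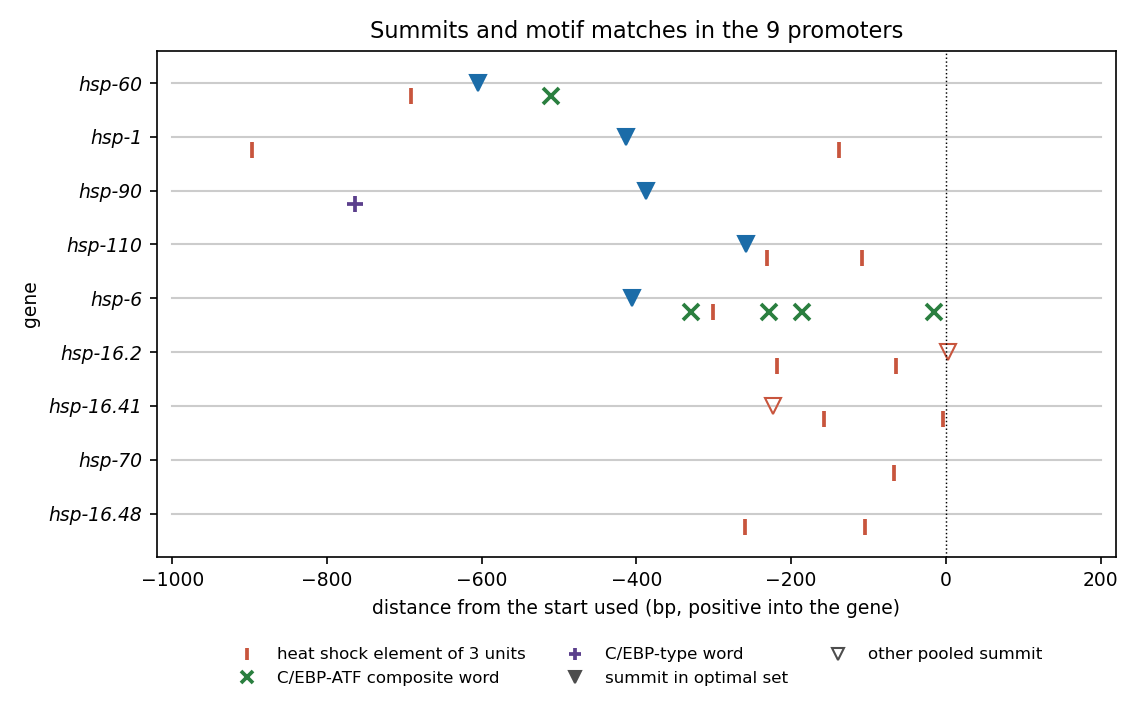
Strongest pooled summits (triangles, filled for the optimal set and open for the weaker region) and matches to 3 motifs in the promoter of the start used, by distance in bp. The heat shock element of 3 units (red bars) is in both classes, the C/EBP-ATF composite word (green crosses) is in hsp-60 and hsp-6, and the C/EBP-type word (purple plus) is in hsp-90, 377 bp from its summit.

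CCAAT, a promoter word added after the sequences were seen, was within 50 bp of the summit at hsp-6, hsp-60 and hsp-90, with 2 matches at hsp-60. It was in 211 of the 1287 windows at distinct optimal intervals and 21.7% of background regions. Because the sequences led to its choice, the count of 3 of 5 supports nothing.

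Some heat-inducible Hsp70 genes outside the 9 did have peaks. Of 8 further Hsp70 relatives, 3 had an optimal peak, against 5.71% of all protein-coding genes. hsp-3, an Hsp70 of the endoplasmic reticulum, had a signal value of 301.5 at pooled rank 179 with the summit at -66 bp. F44E5.4 and F44E5.5, a divergent and nearly identical pair of heat-inducible Hsp70 genes, shared a peak with a signal value of 213.1 at pooled rank 321, midway between their starts at -180 and -171 bp. Its ranks were 343 in replicate 1 and 280 in replicate 2. Between their starts are 10 matches to the heat shock element of 3 units, which count for both promoters. Most of the matches overlap in runs, so they are fewer than 10 separate elements. Although 76.6% of the 36-base words in these promoters are repeated, none in the 101 bp around the summit is. hsp-4, another Hsp70 of the endoplasmic reticulum, had only a region with a signal value of 29.5 at rank 23469.

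Of 12 other identifiers for small heat shock proteins, 1 had an optimal peak, which is near the 5.71% of all protein-coding genes. It was that of sip-1, a small heat shock protein of embryos, with a pooled signal value of 195.3 at rank 371, and ranks of 359 and 414 in replicates 1 and 2. Pooled regions were in 3 of these 12 promoters, against 39.7% of all. The 2 genes named hsp-16.1 had none, and 96.5% and 93.2% of their 36-base promoter words are repeated, so they share the limit of hsp-16.48.

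Co-chaperones of Hsp70 and Hsp90 held optimal peaks in 4 of 10 promoters, against 5.71% of all protein-coding genes. These were unc-23 (a BAG-domain protein; signal value 210.8, rank 334), bag-1 (an exchange factor for Hsp70; 205.5, rank 346), sti-1 (which links Hsp70 to Hsp90; 145.0, rank 573) and ahsa-1 (an activator of Hsp90; 107.2, rank 856). For ahsa-1 the rank was 2098 in replicate 1 and 547 in replicate 2. Of 10 mitochondrial chaperones and proteases, 2 had one against the same 5.71%, Y22D7AL.10 through the region it shares with hsp-60, and clpp-1, the subunit of a matrix protease, with a signal value of 113.8 at rank 787. hsp-75, the mitochondrial Hsp90, had a region with a signal value of 40.4 at rank 8457, and lonp-1, a matrix protease, had none. All these lists were made with earlier results of these data known.

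**Figure D5:**
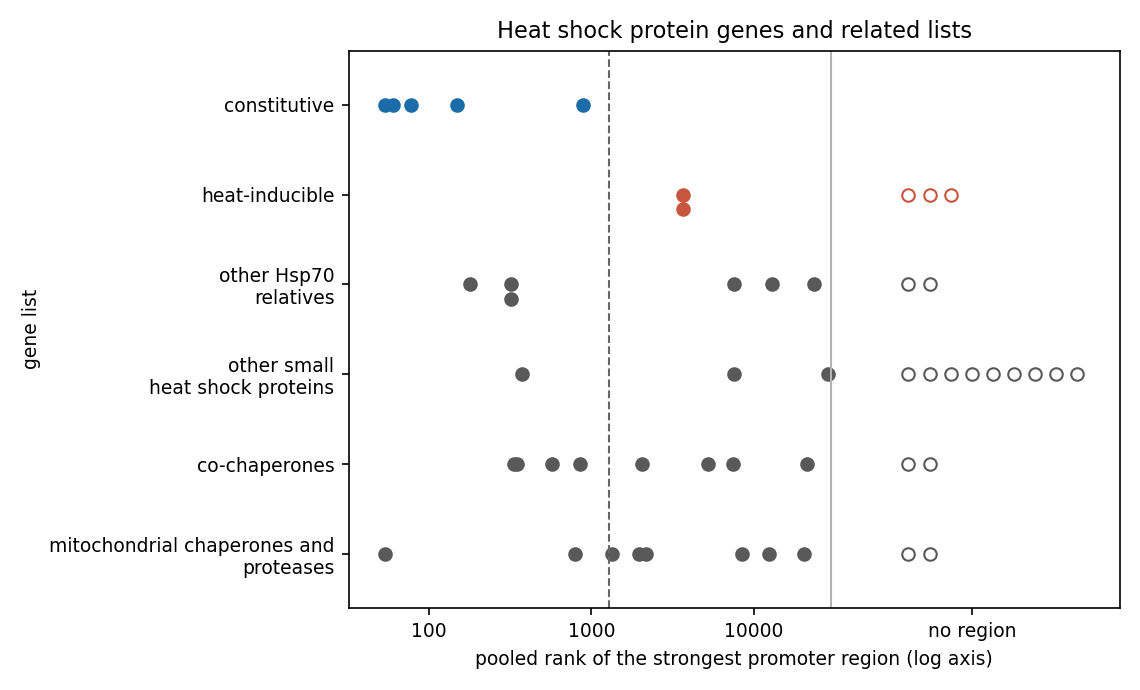
Pooled rank (log axis) of the strongest promoter region of each gene identifier in the 2 classes and 4 related lists, with open circles for identifiers without a pooled region and the dashed line at rank 1290. The 5 constitutive genes are left of the dashed line, none of the heat-inducible ones are, and points stacked in a row share a region, as F44E5.4 and F44E5.5 do at rank 321.

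The genes most like hsp-90, the constitutive gene of middle rank, were taken as the 3 just above and the 3 just below it by pooled rank in the 1 pooled list. Above it stood pcn-1 (the sliding clamp of DNA replication; rank 74) and scpr-1 and gpap-1, which share a region at rank 73. Below it stood set-16 (a histone methyltransferase) and drr-2, which share a region at rank 78, and egl-30 (a G protein alpha subunit; rank 79). Their pooled signal values lay between 484.9 and 505.8, against 495.0 for hsp-90. In the replicates their ranks ran between 62 and 92, a range that also holds hsp-90, so their order is not resolved.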

How the data were processed

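The authors deposited 4 narrowPeak lists on assembly ce11, as the labels and file descriptions say: 30000 regions for each replicate and for the pooled reads, and the optimal set, which equals the 1290 pooled regions of highest signal value. Column 7 is the deposited signal value and column 9 the deposited −log10 q-value. The summit is the interval start plus the deposited offset. Which aligner, peak caller and settings were used is not given in the sources used here. Depth is unknown, so no interval that needs it is given.

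Genes and transcript starts came from Ensembl release 115 (mitochondrial genome left out), sequence from WBcel235, with the same chromosome lengths. A gene was called where a summit lay between 1000 bp before and 200 bp after any start. The strongest region in the promoter was used. Motifs were searched on both strands by exact match, and repeated words on both strands of the genome. Python 3.11.15, pandas 2.3.3, numpy 2.4.6 and matplotlib 3.10.9 were used, and the scripts were tested on simulated data.

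The members and lists were chosen with earlier results of these data known. Named were all members, genes sharing a member's promoter, the listed genes with an optimal peak, and the neighbours of the middle constitutive gene in rank. hsp-4, hsp-16.1, hsp-75, lonp-1 and the regions past gene ends were added after their values were seen. Alternatives varied promoter width, starts, overlap, threshold, replicate and motif window. The use of 1 start per gene was added after seeing the data.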

Additional observations from a re-analysis of the deposited data

How the results depend on the processing

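Of 61 values under alternatives, 53 stayed within 1.5 times the main value. The tally includes counts that stayed at 0 and holds the region shared by hsp-16.2 and hsp-16.41 under both names. It is therefore a loose guide to how stable the results are. None of the 4 heat-inducible genes gained a peak under any alternative run. For either replicate alone, the peaks were the 1290 regions of highest signal value in its list, with no filter on reproducibility. For the q-value alternative they were the pooled regions at 0.05 or less. All 5 constitutive genes had a peak in either replicate alone, with 2000 bp upstream, by interval overlap, at that q-value and with the RefSeq start alone. The count was 4 with 500 bp upstream and 100 bp downstream (without hsp-60), with the 645 stronger peaks (without hsp-6) and with the outermost Ensembl start (without hsp-90). With the 645 stronger peaks, 660 protein-coding genes had a peak in place of 1141; fewer peaks were used there. With 2000 bp upstream, hsp-16.48 gained a weak pooled region, making 3 heat-inducible genes. In replicate 1 alone, hsp-110 ranked 233 and the strongest region of hsp-16.2 and hsp-16.41 ranked 7743; the cause was not tested. The wider motif window raised 4 motif counts, as given beside each motif. The planned use of canonical transcripts was not run, because the annotation used here marks none. No paired analysis was possible because there was 1 group. Sequencing depth was not given, so it cannot be said what depth limits.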
